A study of Mus musculus with 2 samples.

Results

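Meningeal fibroblasts are the collagen-making cells of the membranes around the spinal cord, and they were sought here among single cells of the cord of mice at postnatal day 4. A cell was counted as one where it held an RNA molecule of at least 2 of the fibroblast genes Col1a1, Col1a2, Col3a1 and Dcn, and of at least 2 of the meningeal genes Dlk1, Aldh1a2, Edn3, Wif1, Wnt4 and Notum. It also had to hold no molecule of Mfap5 or Pcolce2, genes of other connective-tissue fibroblasts, and to hold at most 1 of Cldn5, Cx3cr1, Kcnj8 and Aqp4, which mark endothelium, microglia, pericytes and astrocytes. This gave 137 of 17043 kept cells, 41 of 6787 in the library labelled SMA and 96 of 10256 in the library labelled Con. The rule was set on measured counts of these same cells, so the genes that define the cells are given as a description and support nothing by themselves.

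Spinal muscular atrophy (SMA) follows from loss of the SMN protein, and the study asked which cell types and genes of the cord differ between SMA mice and control (Con) mice. The SMA mice carried the genotype mSmn-/-, hSMN22tg/0, and the Con mice carried mSmn+/-, hSMN22tg/0. All were of strain FVB, so both groups had the human SMN2 transgene and the Con mice still had 1 mouse Smn allele. Cords of littermates were pooled into 1 library per group, dissociated with trypsin and collagenase, and sequenced from the 3′ end of each RNA with a unique molecular identifier (UMI) that counts each captured molecule once. With 1 library per group there was no spread between replicates, no test was made, and every interval below is a 95% interval that covers counting error only.

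The meninges are made of dura, arachnoid and pia. Their fibroblasts lay down collagen, elastic fibres and basement membrane, seal the cerebrospinal fluid from the blood at the arachnoid, and release retinoic acid, Wnt proteins, chemokines and growth factors that act on the nervous tissue beneath. In a whole-cord preparation they are few, and how much of the membrane stays on the cord depends on how it was stripped.

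Sharing of barcodes between the libraries has to be known before any value is read. Of the 96 cells labelled Con, 93 had a barcode that was also listed in the library labelled SMA, where the UMI count of the copy was typically 17.7% of that of the Con cell (16.1% at the 5th and 20.2% at the 95th percentile of the copies). None of these copies was larger than its Con cell. Shared barcodes of the library labelled SMA were therefore left out, which removed 52 that would have met the rule. The Con copy of 31 of these 52 was itself a meningeal fibroblast. Values with these 52 barcodes kept are given below for the main results and for genes they moved.

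Depth did not separate the 2 sets of cells. The cells labelled SMA held 4136 to 20957 UMIs with a median of 9029, and those labelled Con held 2332 to 15890 with a median of 8772. Median gene numbers were 2718 and 2680. Mitochondrial RNA made up a median of 6.36% of the UMIs in both, whereas the median share of ribosomal-protein RNA was 20.2% for SMA and 16.4% for Con. The part of this difference in the results was not tested.

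Smn1, the gene inactivated in the SMA mice (ENSMUSG00000021645, GRCm38 chromosome 13, 100124852 to 100137690), did not separate the libraries in these cells. It had 16 UMIs in 14 of 41 cells labelled SMA, or 40.7 CPM (23.3 to 66.1), where CPM are counts scaled to a common total of UMIs, and 40 UMIs in 33 of 96 cells labelled Con, or 48.1 CPM (34.4 to 65.5). The log2 ratio of SMA over Con was -0.24 (-1.18 to 0.63). The files do not show whether these 3′ tags lie in the deleted part of the gene, so the groups are called by their labels throughout.

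Sex-linked RNA in the cells labelled Con differed from that in the rest of their library taken as a whole. Xist, the RNA that silences the inactive X chromosome of females, was found in 0 of 41 cells labelled SMA (0 to 8.60%) and in 16 of 96 labelled Con (16.7%, 9.84 to 25.7). Among all other kept cells it was found in 0.326% of those labelled SMA and 41.2% of those labelled Con. A UMI of a Y-linked gene was found in 27 of the 41 cells and in 52 of the 96, against 56.4% and 20.2% of all other kept cells. Fibroblasts labelled Con with under 2 of the meningeal genes lay between, with Xist in 28.1% and a Y-linked UMI in 37.9%. Fibroblasts labelled Con with Mfap5 or Pcolce2 had Xist in 50.4% and a Y-linked UMI in 8.57%. How the sexes of the pooled pups bear on the differences below was not tested.

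Cells with RNA of another cell type were present, mostly in the library labelled Con. The markers of another class held 1% or more of all UMIs in 4 of 41 cells labelled SMA and in 18 of 96 labelled Con. Among the latter, 9 reached this level for markers of pericytes and smooth muscle and 6 for markers of red blood cells, of which 3 had more than 10% haemoglobin RNA, up to 42.6% in a single cell. The cells labelled SMA that reached it did so for astrocyte markers in 2 cells, oligodendrocyte markers in 2 cells and Schwann cell markers in 1 cell. Of the 16 cells with Xist, 10 were among these carrying cells. In the cells that did not reach 1%, markers of other classes were still found. Their summed level reached 0.783% and 0.986% of the UMIs of a cell labelled SMA and labelled Con for oligodendrocytes, 0.940% and 0.762% for astrocytes, 0.863% and 0.782% for pericytes and smooth muscle, 0.340% and 0.789% for neurons and 0.334% and 0.789% for red blood cells. Of the endothelial markers Kdr had no UMI in either library, while Cdh5 was found in 31 of 41 and 32 of 96 cells, and the highest summed level of the list in any cell was 0.121%. Of 8 skeletal muscle genes, Myod1, Myog, Acta1, Myh3, Actc1 and Pax7 had no UMI, and the summed level of the list reached 0.0615% of the UMIs of a cell at most. For the 22 carrying cells the label therefore does not hold alone, and the values without them are given beside the main results below.

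Most cells held more of the fibroblast genes than the rule asked for. All 4 of Col1a1, Col1a2, Col3a1 and Dcn were found in 40 of 41 cells labelled SMA and in 87 of 96 labelled Con, and 6 cells labelled Con held exactly 2. More cells lay at the limit of the meningeal part, where 5 cells labelled SMA and 35 labelled Con held exactly 2 of the 6 genes, and 17 and 73 cells held exactly 1 and stayed outside. In the library labelled Con the cells just inside stood at 7556 CPM of Ptn and 533 CPM of Slc6a13, those just outside at 3628 and 165 CPM. Rgs5, a pericyte gene, stood at 1395 CPM just inside and 2513 CPM just outside, against 89.1 CPM in cells with 3 or more of the genes. In the library labelled SMA the cells just inside had no Rgs5 UMI.

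The genes that led these cells over all other kept cells included 26 that were not in the rule, of varied function. Slc6a13, a transporter of GABA and taurine, had a UMI in 100% of the cells labelled SMA and 89.6% of those labelled Con, against 1.11% and 1.37% of the other cells, and its level was 279-fold and 65.6-fold that of the other cells. A2m, a plasma protease inhibitor, was 75.5-fold and 81.8-fold higher. Adh1, which oxidises retinol and other alcohols, was 183-fold and 72.3-fold higher. Penk, the precursor of enkephalins, was 63.1-fold and 68.2-fold higher. Igf2, an imprinted growth factor, stood at 1056 and 970 CPM and was 114-fold and 54.0-fold above the other cells. Tbx18, a transcription factor of mesenchyme, was 97.1-fold and 46.9-fold higher. Col13a1, C1qtnf2, Apod, Cxcl12, Gjb2 and the sulfate transporter gene Slc13a4 were also among the 30 leading genes, which held 4 genes of the rule. These folds describe the cells that the rule picked and are not a test.

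In droplet data free RNA gives UMIs to cells that do not express a gene, and microglia, which should lack these genes, show that level. Col1a2 had a UMI in 2.64% of microglia labelled SMA and 4.81% of those labelled Con, Dcn in 0.684% and 2.52%, and Slc6a13 in 0.684% and 1.72%, at median depths of 6592 and 6595 UMIs. Among the meningeal fibroblasts Slc6a13, which the rule did not use, was found in 100% and 89.6%, while the shares of Col1a2 and Dcn were set by the rule. The microglia labelled Con held more collagen RNA than those labelled SMA.

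The share of kept cells that met the rule was 0.604% (0.434 to 0.819) in the library labelled SMA and 0.936% (0.759 to 1.14) in the library labelled Con. The log2 ratio of these shares was -0.63 (-1.16 to -0.11). It depended on the cells taken. Without carrying cells it was -0.48 (-1.04 to 0.08), with none of the 4 markers of other cells -0.47 (-1.07 to 0.13), with the rule applied after thinning to 1500 UMIs -0.48 (-1.12 to 0.17), and at a mitochondrial limit of 20% -0.48 (-0.97 to 0.01), all with intervals that included 0. When 3 or more of the 6 meningeal genes were asked for, 36 and 61 cells remained and the log2 ratio was -0.17 (-0.76 to 0.43). Among cells of at least 3000 UMIs it was -0.98 (-1.50 to -0.45). With the 52 shared barcodes kept 93 cells labelled SMA met the rule and it was -0.42 (-0.83 to -0.01). How much meninx stayed on each cord at dissection cannot be told apart from the number of these cells in the animals.

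The levels of the rule's own genes were unequal between the libraries. Aldh1a2, the enzyme that makes retinoic acid in the meninges (GRCm38 chromosome 9, 71215789 to 71296243), had 156 UMIs at 397 CPM (337 to 464) in the cells labelled SMA and 50 UMIs at 60.2 CPM (44.7 to 79.3) in those labelled Con. It was found in 31 of 41 and in 29 of 96 cells. Dlk1, an imprinted Notch-family ligand of growing mesenchyme, ran the other way at 610 and 1069 CPM, a log2 ratio of -0.81 (-1.02 to -0.60). Edn3, a ligand of endothelin receptors, stood at 140 and 207 CPM. Wif1 and Notum, which block Wnt signals outside the cell, were closer, at log2 ratios of 0.20 (-0.32 to 0.70) and -0.39 (-0.79 to -0.01). The Wnt ligand gene Wnt4 stood at 175 and 91.5 CPM.

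Among 1763 genes that reached 100 UMIs over both sets of cells, 58 were at least 2-fold higher in the cells labelled SMA (percent called 3.29) and 109 were at least 2-fold lower (6.18), together 167 genes (9.47), and the median log2 ratio was 0.01. Without the cells carrying another class the counts were 48 (3.27) and 96 (6.54) of 1468 genes. With the 52 shared barcodes kept they were 39 and 73 of 1868. The minimum was set on the sum of both libraries, and the cells labelled Con held 831054 UMIs against 393166 of those labelled SMA. A gene with few UMIs in 1 library, such as Wnt6 or Lum, reached it through the library where it was high. With no minimum but 1 UMI in each library, 1830 genes were at least 2-fold higher and 1557 at least 2-fold lower of 11691, so the excess of lower genes did not hold there. For 10 of the 167 genes more than 50% of the UMIs of the higher library came from a single cell, among them Ptgds, Mal, Mag, Cnp, Nnat, Gfap and C1qa. The counting interval lay above 0 for 376 of the 1763 genes and below 0 for 366, together 42.1%. An interval that leaves out 0 was thus common and does not by itself set a gene apart.

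Of the 10 tested genes for fibrillar collagens and the proteins that process them that were not in the rule, 5 were at least 2-fold lower in the cells labelled SMA and 0 at least 2-fold higher, with a median log2 ratio of -1.03. The 5 were Col5a1, Col5a2, Adamts2, Bmp1 and Loxl1. The rule's own genes Col1a1, Col1a2 and Col3a1 were also lower, which makes 8 of 13 with a median of -1.14 over the whole list, and their values describe cells that they helped to choose. Col1a2, a chain of type I collagen (ENSMUSG00000029661, GRCm38 chromosome 6, 4504814 to 4541544, plus strand, protein-coding), ranged from 252 to 4599 CPM over the cells labelled SMA with a median of 1521, and from 94.8 to 28541 CPM over those labelled Con with a median of 4997. The ranges overlapped, but the median cell labelled Con lay above the highest cell labelled SMA. Summed over cells, Col1a2 reached 1735 CPM (1607 to 1870) against 6077 CPM (5910 to 6247), which is -1.81 on the log2 scale (-1.93 to -1.69). Col1a1, its partner chain (chromosome 11, 94936224 to 94953042), stood at 1956 and 4942 CPM, a log2 ratio of -1.34 (-1.45 to -1.23). Col3a1, the type III chain of soft tissue (chromosome 1, 45311538 to 45349706), stood at 1343 and 3503 CPM, a log2 ratio of -1.38 (-1.52 to -1.25).

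The genes that process collagen stood lower too. Serpinh1, the collagen chaperone of the endoplasmic reticulum, was at 1061 and 1975 CPM, a log2 ratio of -0.90 (-1.06 to -0.74). Pcolce, which aids removal of the procollagen end, was at -0.96, and Sparc, a collagen-binding secreted protein, at -0.76 (-0.83 to -0.69) with 5593 and 9449 CPM. Bmp1, the procollagen protease, was at -1.34, and Loxl1, a cross-linking enzyme, at -1.26. The genes of the list made up 0.391 to 3.46% of the UMIs of a cell labelled SMA with a median of 1.32%, and 0.215 to 10.7% of a cell labelled Con with a median of 2.62%. With the 52 shared barcodes kept the list median was -0.66, and without carrying cells it was -1.16. The same list in microglia, which should lack collagen, had a median of -0.53 over 11 genes, of which 5 were at least 2-fold lower, where 0.659% of the 8493 genes tested in microglia were (56 genes). The part of free RNA in the difference was not tested. In the fibroblasts with under 2 of the meningeal genes the median was -0.22 over 15 genes, and in those with Mfap5 or Pcolce2 it was -1.82 over 20 genes, with only 21 cells labelled SMA. The difference between these cells and the meningeal fibroblasts was not tested.

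**Figure D1:**
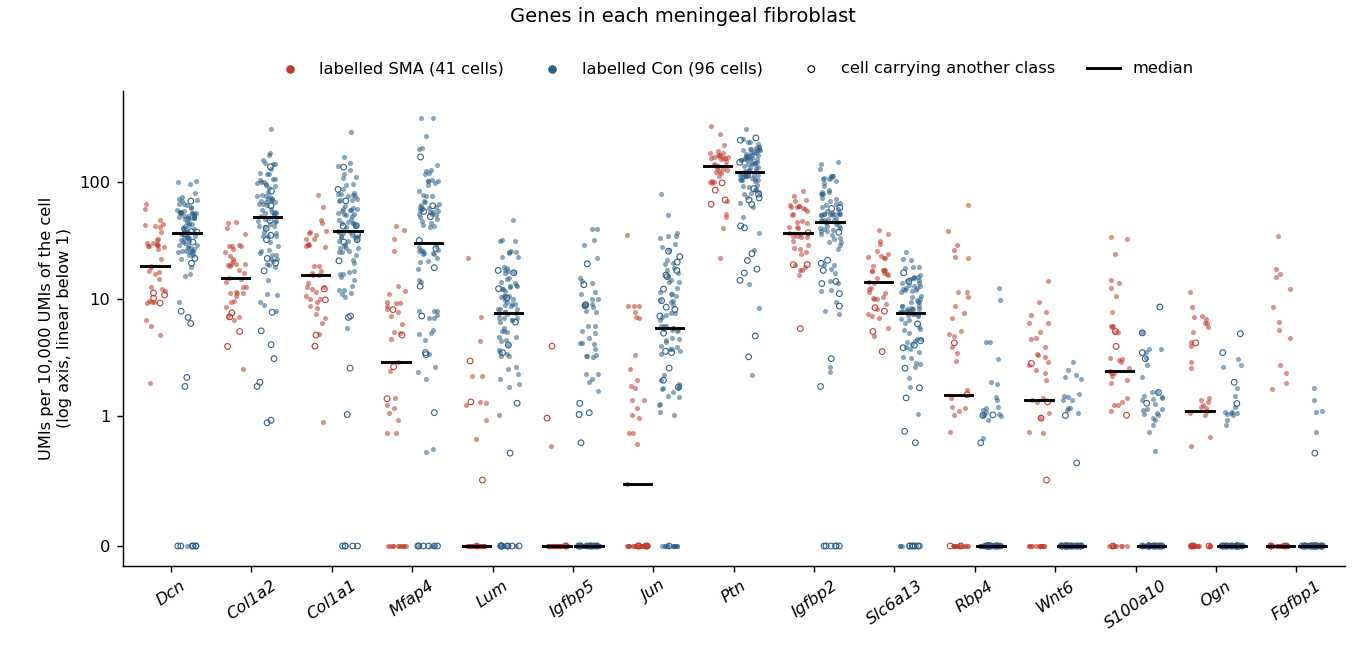
UMIs per 10,000 UMIs of the cell (vertical axis, logarithmic above 1) of 15 genes in each of the 41 cells labelled SMA and 96 labelled Con. Points are cells, open points are cells in which markers of another class held 1% or more of the UMIs, and bars are medians. The medians of Col1a2, Mfap4, Lum and Jun lie lower in the cells labelled SMA, those of Rbp4, Wnt6, S100a10 and Ogn lie at 0 only in the cells labelled Con, and those of Ptn nearly coincide.

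Other collagens followed. Of 13 tested, 6 were at least 2-fold lower and the median was -0.997. Col6a1, Col6a2 and Col6a3, the chains of the beaded filaments of type VI collagen, were at -1.50, -1.44 and -1.75. Col15a1, a collagen of the zone next to basement membranes, had 14 UMIs in 7 of 41 cells and 185 UMIs in 58 of 96 cells, a log2 ratio of -2.64 (-3.54 to -1.86), or -2.06 with the shared barcodes kept. Col4a1 and Col4a2, the network chains of the basement membrane, were at -0.90 and -0.70. Among 9 laminins and other basement membrane genes 3 were at least 2-fold lower, Lama1 at -1.13, Hspg2, which encodes perlecan, at -1.08, and Fbln1 at -1.15. Lamc3 and Nid2 stood at 0.14 and 0.24, with intervals that included 0.

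Elastic fibre genes and matrix glycoproteins were lower as well. Of 16 tested, 10 were at least 2-fold lower, and the median was -1.13. In microglia, which should lack most of them, 6 of 14 genes were at least 2-fold lower, against 0.659% of all genes tested there, and the median was -0.30. The part of free RNA in the difference was not tested here either. The median of the list was -0.25 over 14 genes in the fibroblasts with under 2 meningeal genes and -1.46 over 29 genes in those with Mfap5 or Pcolce2. Mfap4, a microfibril protein (chromosome 11, 61485431 to 61488900), had 253 UMIs at 643 CPM (567 to 728) in the cells labelled SMA and 4414 UMIs at 5311 CPM (5156 to 5470) in those labelled Con. Single cells ran from 0 to 4193 CPM with a median of 290, and from 0 to 35168 CPM with a median of 2995. The log2 ratio was -3.05 (-3.23 to -2.86) and was -1.22 with the shared barcodes kept. Eln, elastin itself, had 45 UMIs against 713, which is -2.91 on the log2 scale (-3.37 to -2.47). Mfap2 was at -1.77 (-1.96 to -1.59), Postn, which encodes periostin, at -2.32 (-2.89 to -1.79), and Tgfbi at -2.89 (-3.78 to -2.11). Fbln5, a fibulin that guides elastin onto microfibrils, was the only one above 0, at 0.92 (0.44 to 1.41). Fbn1, the fibrillin gene, was at -0.34 with an interval that included 0.

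Small leucine-rich proteoglycans, which bind collagen fibrils and set their width, split into opposite directions. Lum, which encodes lumican (chromosome 10, 97565128 to 97572703), had 34 UMIs in 13 of 41 cells labelled SMA and 771 UMIs in 82 of 96 labelled Con. Its level was 86.5 CPM (59.9 to 121) against 928 CPM (863 to 996), which is -3.42 on the log2 scale (-3.96 to -2.93). After each cell was thinned to 1000 UMIs, 2 of 41 and 48 of 96 cells still held it, as did 0 of 1023 thinned microglia labelled SMA (0 to 0.360%) and 0.463% of those labelled Con. Bgn, biglycan, was at -1.85 (-2.07 to -1.63) and Dcn, decorin, at -0.79 (-0.90 to -0.68). Fmod, fibromodulin, ran the other way with 130 UMIs in 29 cells and 42 UMIs in 16 cells, a log2 ratio of 2.71 (2.20 to 3.25). Ogn, osteoglycin, did so too, with 105 UMIs in 25 cells and 30 UMIs in 18 cells, a ratio of 2.89 (2.29 to 3.52). Thus 2 of the 5 tested were at least 2-fold higher and 2 at least 2-fold lower.

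Immediate early genes, which cells switch on within minutes of a stimulus, were lower in the cells labelled SMA. Of 12 tested, 10 were at least 2-fold lower and the median was -1.77. Jun, a subunit of the AP-1 transcription factor (chromosome 4, 95049034 to 95052222, minus strand), had 84 UMIs in 21 of 41 cells and 827 UMIs in 83 of 96 cells, a log2 ratio of -2.22 (-2.56 to -1.89). Fos, its partner, stood at 633 and 1509 CPM, a ratio of -1.25 (-1.45 to -1.06). Junb was at -1.73, Ier2 at -2.05, Dusp1, a phosphatase that ends MAP kinase signals, at -2.25, Klf2 at -2.16 and Egr1 at -1.81. Btg2, an antiproliferative gene that is also a p53 target, was at -2.72 (-3.35 to -2.14), while the other tested p53 targets Bax and Rps27l stood at 0.34 and 0.39. Jund and Ier3 were less than 2-fold lower, at -0.96 and -0.69.

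The immediate early genes made up a median of 0.235% of the UMIs of the cells labelled SMA (0.0382 to 1.29) and 0.662% of those labelled Con (0.0262 to 3.59). The order was the opposite in the other kept cells, with medians of 0.540% and 0.359%. The list median was 0.19 over 20 genes in the other fibroblasts, 0.66 over 14 genes in pericytes and -0.22 over 21 genes in microglia. It was -1.82 over 18 genes in the fibroblasts with Mfap5 or Pcolce2, of which only 21 cells were labelled SMA. These values stand side by side, and no test of their difference was made.

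The plot of gene lists shows matrix and immediate early genes on the lower side and a few lists on the higher side.

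**Figure D2:**
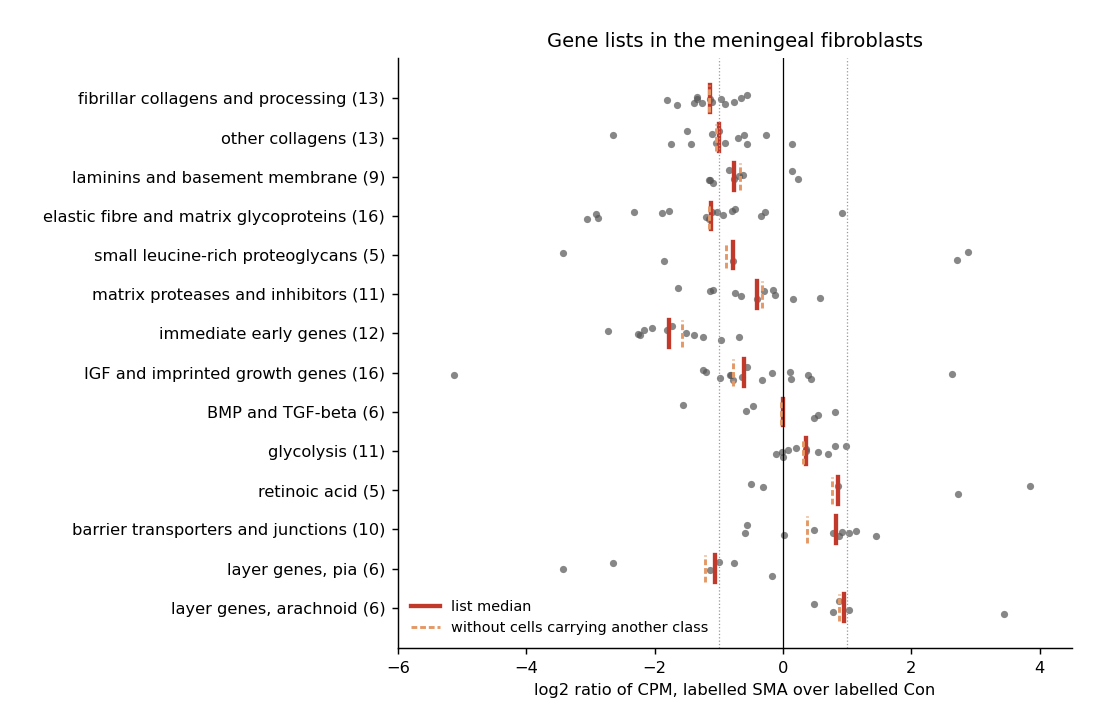
Log2 ratio of CPM, labelled SMA over labelled Con (horizontal axis), in 14 lists, of each member that reached 100 UMIs, with the number tested in parentheses. Points are genes, red bars are list medians, dashed orange bars the medians without cells carrying another class, and dotted lines mark 2-fold. Ptgds, which had no UMI in the cells labelled Con, has no point but counts in the arachnoid median. The median of the immediate early genes lies lowest at -1.77 and that of the arachnoid genes highest at 0.96.

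Retinoic acid genes differed among themselves, and those farthest from equal were higher in the cells labelled SMA. Rbp4, the carrier of retinol (ENSMUSG00000024990, chromosome 19, 38116629 to 38125281), ran from 0 to 6342 CPM over the cells labelled SMA with a median of 152, and from 0 to 1232 CPM over those labelled Con with a median of 0. It had 307 UMIs in 27 of 41 cells and 45 UMIs in 22 of 96, a log2 ratio of 3.85 (3.40 to 4.34). Aldh1a2 was at 2.72 (2.25 to 3.21), and was one of the genes of the rule. Both genes were uneven over the cells labelled SMA and were in part held by the same cells. The cells with 54, 45 and 37 UMIs of Rbp4 held 13, 17 and 13 UMIs of Aldh1a2, whereas a cell with 34 of Rbp4 held 3. Crabp2, which carries retinoic acid to its receptor, had 68 UMIs in 16 cells and 15 UMIs in 6 cells, under the 100 UMIs asked for. Aldh1a1 and Rarres2 were not higher, at -0.49 and -0.31. Of 5 tested genes 2 were at least 2-fold higher and 0 at least 2-fold lower. Since Aldh1a2 is a gene of the rule, Rbp4 was the only gene outside the rule that was at least 2-fold higher.

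Wnt6, a Wnt ligand (chromosome 1, 74771892 to 74785322), had 118 UMIs in 29 of 41 cells labelled SMA and 23 UMIs in 16 of 96 labelled Con. This was 300 CPM (248 to 359) against 27.7 CPM (17.5 to 41.5), or 3.44 on the log2 scale (2.79 to 4.15). It was found in 0.196% of microglia labelled SMA and 1.03% of those labelled Con. Wnt5a, a ligand that acts without beta-catenin, did not differ at 130 and 126 CPM. The Wnt inhibitor gene Sfrp1 and Lgr4, a receptor that strengthens Wnt signals, were both at 148 and 72.2 CPM, a ratio of 1.03 (0.48 to 1.58). Without carrying cells Sfrp1 was at 0.87, under 2-fold. Fzd2, a Wnt receptor, was at 0.29 with an interval that included 0.

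Genes of the fluid barrier stood slightly higher. Of 10 tested barrier transporters and junction genes, 3 were at least 2-fold higher and 0 at least 2-fold lower, with a median of 0.83. Slc6a13 (chromosome 6, 121300227 to 121337733) ran from 355 to 3868 CPM over the cells labelled SMA with a median of 1401, and from 0 to 2545 CPM over those labelled Con with a median of 764. Its summed level was 1536 CPM (1416 to 1664) against 750 CPM (692 to 811), or 1.04 on the log2 scale (0.87 to 1.20). Slc6a20a, a proline transporter, was at 1.45 (0.90 to 2.01), and Cdh5, a cadherin of endothelium, at 1.14 (0.55 to 1.72) with UMIs in 31 of 41 and 32 of 96 cells. The connexin gene Gjb6 was at 0.88 (0.57 to 1.18) and Gja1 at 0.02. The list was sensitive to carrying cells, without which its median was 0.38 and 1 of 9 tested genes was at least 2-fold higher. Cldn11, the claudin shared by the arachnoid barrier and myelin, moved from 0.77 to -0.52 without them.

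Genes listed for the layers of the meninges did not move together. The 6 tested arachnoid genes were all higher, with a median of 0.96, and 3 were at least 2-fold higher, or 2 of 6 without carrying cells, where Cldn11 was no longer higher. Ptgds, described next, is among the 6. The 6 tested pia genes were all lower, with a median of -1.06, and 3 of them at least 2-fold, namely Lum, Col15a1 and Lama1, or 4 of 6 without carrying cells. Lum and Col15a1 reached the minimum only through the cells labelled Con, so the same holds for them. Of 3 tested dura genes Ogn was higher, Mgp, the inhibitor of calcification, was lower at -1.24 (-1.60 to -0.90), and Col8a1 was at -0.27.

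Ptgds, the enzyme that makes prostaglandin D2 and a known product of arachnoid cells (chromosome 2, 25466709 to 25470046), was found in cells labelled SMA, with most of its UMIs in 1 cell. It had 8132 UMIs in 10 of 41 cells labelled SMA and 0 UMIs in the 96 labelled Con. A single cell held 7882 of them, which made up 37.6% of its 20957 UMIs. The other 9 cells held 250 UMIs, or 672 CPM over all cells but that one. Against a floor of 3 counts over all cells labelled Con, this remainder was at least 186-fold higher. It lay mostly in cells with 103, 77, 44 and 20 UMIs, and the rest held 1 or 2 each. Those with 103, 77, 44 and 20 also held 25, 54, 37 and 45 UMIs of Rbp4 and 17, 13, 13 and 17 of Aldh1a2. In microglia labelled SMA, 1.96% of cells had a UMI of Ptgds.

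**Figure D3:**
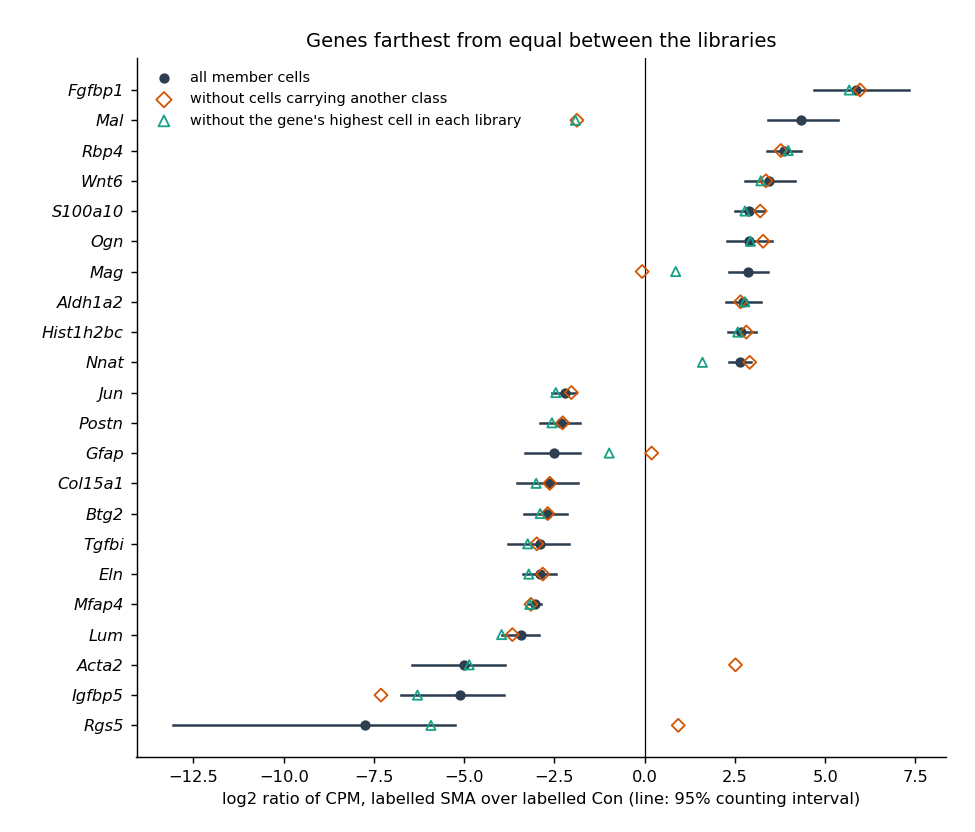
Log2 ratio of CPM, labelled SMA over labelled Con (horizontal axis), with 95% counting intervals, of the 22 genes named for their difference that had UMIs in both libraries. Circles are all cells, diamonds leave out cells carrying another class, and triangles leave out the highest cell of each library. Fgfbp1, Rbp4 and Wnt6 stay above 3 and Lum and Mfap4 stay at or below -3 in all of these, whereas Mal, Mag, Gfap, Acta2 and Rgs5 move to or across 0 in at least 1 of them.

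Keeping the 52 shared barcodes moved several of the lower genes toward 0 without turning their direction. Lum was then at -2.19, Eln at -1.44, Postn at -1.47, Btg2 at -1.77 and Jun at -1.603. Among the higher genes Rbp4 was at 3.59, Wnt6 at 3.23 and Ogn at 2.62.

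The other genes farthest from equal fell into those spread over cells and those held by a few. Fgfbp1, which releases fibroblast growth factors from the matrix (chromosome 5, 43978858 to 43981779), had 164 UMIs in 13 cells labelled SMA and 6 UMIs in 6 cells labelled Con, or 5.85 on the log2 scale (4.70 to 7.32). Its highest cells held 44 and 38 of the 164, the latter being the cell with most of Ptgds. The median cell of each library held none. S100a10, a partner of annexin A2, had 232 UMIs in 32 of 41 cells and 66 UMIs in 32 of 96, a ratio of 2.89 (2.49 to 3.31). Hist1h2bc, a histone H2B gene of the kind that also makes polyadenylated RNA, had 227 UMIs in 38 cells and 75 UMIs in 37 cells, a ratio of 2.68 (2.29 to 3.07). Its UMI was also more frequent in microglia labelled SMA, at 56.8% against 22.3%. Nnat, an imprinted proteolipid gene, was at 2.63, with 56.2% of its UMIs from the cell that held Ptgds, and at 1.599 without the highest cell.

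Mal and Mag, genes of myelin, were at 4.32 and 2.86, but 1 cell labelled SMA held 103 of 104 UMIs of Mal and 116 of 134 of Mag. Without the carrying cells they were at -1.88 and -0.07, with at most 1 UMI of Mal left in the cells labelled SMA. In the other direction Rgs5 had 1 UMI in the cells labelled SMA and 456 UMIs in 10 cells labelled Con, and Acta2, smooth muscle actin, 6 UMIs and 405 UMIs in 10 cells. Without the carrying cells their ratios were 0.93 and 2.51. For Rgs5 this rests on 1 UMI in each library, and for Acta2 on at most 6 UMIs in the cells labelled SMA, so neither is a measured reversal. Gfap, an astrocyte filament, moved from -2.51 to 0.19. Leaving these cells out removes such genes by construction. The haemoglobin genes Hba-a1, Hbb-bs and Hbb-bt were at -5.29, -5.47 and -5.22, and at -0.15, -0.30 and -0.79 without the carrying cells.

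Igfbp5, a binding protein of insulin-like growth factors (chromosome 1, 72857932 to 72874884), had 5 UMIs in 3 of 41 cells labelled SMA and 370 UMIs in 44 of 96 labelled Con, or -5.13 on the log2 scale (-6.76 to -3.89). This value rested on the removal of shared barcodes, since it was -1.78 with them and -7.31 without carrying cells. It was found in 3.32% and 5.27% of microglia. The other members of the growth list moved less. Igfbp2 was at 4131 and 4630 CPM, Igf2 at 1056 and 970 CPM, H19, the noncoding RNA next to it, at 404 and 373 CPM, and Cdkn1c, a cell-cycle inhibitor, at 933 and 688 CPM. Igfbp4 and Igfbp7 were at -0.97 and -1.21, and the imprinted noncoding RNA Meg3 at -1.25. Of 16 tested, 1 was at least 2-fold higher and 3 at least 2-fold lower, and the median was -0.60, with Dlk1 and Dcn, genes of the rule, counted in it.

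Ptn, which encodes the growth factor pleiotrophin (chromosome 6, 36714929 to 36810220), held the highest level among the growth factors and was nearly equal. Single cells ran from 2228 to 29890 CPM with a median of 13634 in the library labelled SMA, and from 223 to 28245 CPM with a median of 12079 in the library labelled Con. The ranges overlapped, with the lowest cells labelled Con below those labelled SMA, and the log2 ratio was 0.07 (0.02 to 0.12). Its relative Mdk, midkine, was at -0.59 (-0.73 to -0.46). Among chemokines and cytokines Cxcl12, which guides cells along the meninges, was at -0.77 (-0.92 to -0.61), Cxcl16 at -1.68 and Il34, a survival factor of microglia, at 1.64 (1.13 to 2.16). Bmp6 and Bmp7 stood at 0.81 and 0.48, and Id1, a target of BMP signals, at -1.55 (-2.41 to -0.78).

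None of 11 tested glycolysis genes was 2-fold apart, and their median was 0.35, with Ldhb highest at 0.99, or 1.10 without carrying cells, when it was 2-fold apart. Among interferon-stimulated genes Ifitm1 was at 1.595 (1.42 to 1.77) and Ifitm3 at 0.75, while Ifitm2 was at -0.24. Of the transcription factors, Zic1 was at -0.23, Tbx18 at -0.51, Prrx1 at -0.29 and Nr2f2 at -0.12, all with intervals that included 0. Klf4 and Ebf1 were at -1.51 and -1.45. Hoxc10, the only Hox gene with enough UMIs, was at -1.01. Of the SMN complex only Strap could be compared, at 0.16 (-0.46 to 0.75). The list of vascular genes that the study drew from these same libraries had 4 of 9 tested genes at least 2-fold lower, of which Col1a1, Col1a2 and Col3a1 were genes of the rule, and 1 at least 2-fold higher, S100a10. It is not independent of these libraries.

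Promoter sequences are shown for genes of the groups that differed, so that a reader can see what lies before their starts. The sequences are those of RefSeq on GRCm38.p6, where 11 of 16 genes looked for were matched, and each run is the 150 bases before the start that RefSeq gives, on the gene's own strand. For Col1a2 and Rbp4 this start lies inside the gene positions printed above, which come from another annotation, and so do the windows. Capitals mark the motifs CCAAT and TATAAA and the AP-1 motif TGANTCA, searched on both strands. For Rbp4, start number 2 of the 2 in the table is shown. Col1a2 and Col3a1 were lower in the cells labelled SMA, Rbp4 and Aldh1a2 higher, and Jun and Fos lower.
Col1a2, chr6:4505468-4505617, plus strand: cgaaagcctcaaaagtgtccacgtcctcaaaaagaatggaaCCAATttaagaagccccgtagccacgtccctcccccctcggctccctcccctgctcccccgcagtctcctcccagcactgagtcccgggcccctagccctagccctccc
Col3a1, chr1:45311388-45311537, plus strand: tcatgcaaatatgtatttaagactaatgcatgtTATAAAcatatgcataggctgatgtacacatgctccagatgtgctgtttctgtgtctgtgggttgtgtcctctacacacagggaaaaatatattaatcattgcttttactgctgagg
Rbp4, chr19:38124812-38124961, minus strand: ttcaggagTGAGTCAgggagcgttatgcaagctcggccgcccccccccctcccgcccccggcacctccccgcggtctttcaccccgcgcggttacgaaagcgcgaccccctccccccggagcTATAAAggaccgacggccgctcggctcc
Aldh1a2, chr9:71215639-71215788, plus strand: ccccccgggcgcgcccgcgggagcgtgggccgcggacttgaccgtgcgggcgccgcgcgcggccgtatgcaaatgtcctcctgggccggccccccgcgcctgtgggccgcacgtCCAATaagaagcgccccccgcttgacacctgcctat
Jun, chr4:95052223-95052372, minus strand: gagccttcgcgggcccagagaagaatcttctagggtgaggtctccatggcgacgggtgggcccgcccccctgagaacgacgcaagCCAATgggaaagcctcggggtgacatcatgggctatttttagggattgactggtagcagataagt
Fos, chr12:85473740-85473889, plus strand: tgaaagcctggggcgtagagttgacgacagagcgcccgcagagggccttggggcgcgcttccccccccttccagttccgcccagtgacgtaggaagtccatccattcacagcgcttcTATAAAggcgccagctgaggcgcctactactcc

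CCAAT was found in the windows of Col1a2, Aldh1a2 and Jun, TATAAA in those of Col3a1, Rbp4 and Fos, and TGANTCA in that of Rbp4. Of the other windows, those of Btg2 and Junb held CCAAT, and those of Wnt6, Ogn, Fosb and start number 1 of Rbp4 held none of these 3 motifs. The windows printed were thus chosen among those with a motif. Of all 32851 promoter windows of 150 bases, 24.5% held CCAAT, 7.57% held TATAAA and 4.24% held TGANTCA. Over the 250 bases before the start, CCAAT was found in 4 of 10 matched immediate early genes, 2 of 9 fibrillar collagen genes, 3 of 12 elastic fibre and matrix glycoprotein genes and 3 of 8 barrier genes, against 33.8% of all windows. TATAAA was found in 1, 2, 3 and 0 of the same genes, against 12.4%. A gene counts if any of its windows matched, and the 12 and 8 genes had 18 and 10 windows. Their shares are thus not on the same footing as a share of single windows. TGACGTCA, the motif of cyclic AMP response, was found in Btg2 and Dusp1 among the 10 immediate early genes, and in 1.55% of all windows. The CArG box of serum response factor and TGANTCA were found in 0 of the 10 immediate early genes and 0 of the 9 fibrillar collagen genes, against 1.47% and 6.75% of all windows, and TGANTCA in 1 of the 8 barrier genes, Gja1. No match says only that these letters are not in the window. A match is a run of letters and says nothing of binding in these cells.

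The cells were divided by their most variable genes into 6 groups, and most groups came mainly from 1 library. Group 1 held 2 cells labelled SMA and 37 labelled Con and was led by Il15ra, Tff3, Rasd1 and Penk. Group 2 held 28 and 6 and was led by Serpind1, Fgfbp1, Adm, Rbp4 and Wnt6. Group 3 held 0 and 22 and was led by Ccl19, Nkain3 and Sfrp4, with Mfap4 at 11649 CPM and Igfbp5 at 1024 CPM. Group 4 held 8 and 11 and was led by astrocyte and oligodendrocyte genes such as Kcnj10, Aldh1l1, Gfap and Mag, and 7 of its cells carried another class. Group 5 held 3 and 15 and was led by Rgs5 and Acta2, and 9 of its cells carried another class. Group 6 held 5 cells labelled Con, with Apod at 18546 CPM and Dcn at 8386 CPM, and was led by Ccl11 and Foxd2. The genes that differ between the libraries took part in this division, so the sizes of the groups are not compared and the groups have no names.

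**Figure D4:**
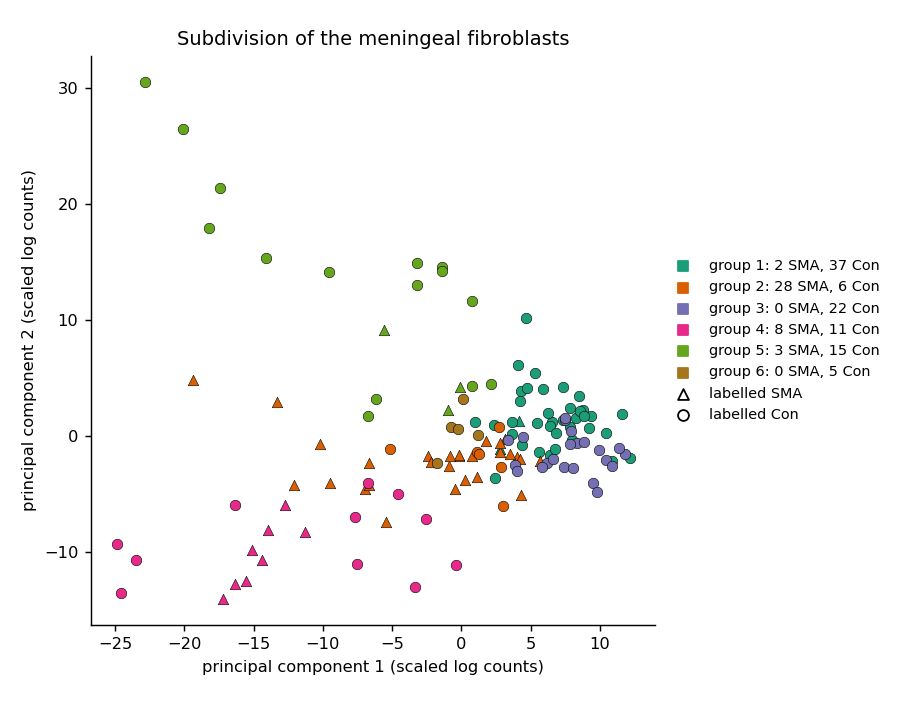
The first 2 principal components of the scaled log counts of the 137 cells (both axes, no unit). Triangles are cells labelled SMA, circles cells labelled Con, and colours the 6 groups. Most triangles lie in group 2, and groups 4 and 5 hold most cells carrying another class. Many cells of groups 4 and 5 lie away from the rest, but the groups overlap. Some cells of group 5 lie among those of other groups, and some cells of group 2 lie beside those of group 4.

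Values within the groups that held cells of both libraries are given as a description, since the genes compared took part in the division and near-equal levels in a group may follow from it. No test of a difference between groups was made. In group 2, Col1a1 stood at 2082 CPM in 28 cells labelled SMA and 1830 CPM in 6 labelled Con, which is 0.19 on the log2 scale (-0.19 to 0.58), and Col1a2 and Col3a1 were at -0.24 and -0.03 with intervals that included 0. Mfap4 was at -0.24 (-0.84 to 0.42) there and Jun at 0.20 (-1.13 to 1.89), while Fos was at 0.90 (0.06 to 1.88). In group 4, Col1a1 was at -1.38 (-1.78 to -0.99) over 8 and 11 cells, Col1a2 at -1.92, Jun at -3.19 and Fos at -2.42. In group 5, Col1a1 stood at 2757 CPM in 3 cells labelled SMA and 2766 CPM in 15 labelled Con, and Col3a1 at 1906 and 1603 CPM. Group 1 held only 2 cells labelled SMA and is not compared. Lum was also lower in the other groups compared, at -3.80 (-5.01 to -2.67) in group 2 and -2.52 (-3.91 to -1.35) in group 4. Rbp4 was at 5.24 (2.75 to 10.55) in group 2 and at -0.28 (-1.71 to 1.09) in group 4. Hist1h2bc was higher in both, at 2.59 (1.01 to 4.88) and 1.47 (0.63 to 2.38). The cells labelled SMA lay mostly in group 2 and those labelled Con in groups 1 and 3, so the levels over all cells compare different groups.

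The levels beside those of the other fibroblast-like cells are again a description of cells picked by their genes. Ptn was at 12369 and 11760 CPM, against 2167 and 2077 CPM in the fibroblasts with under 2 meningeal genes and 4339 and 2133 CPM in pericytes. Igfbp2 was at 4131 and 4630 CPM against 403 and 470 CPM, and Cxcl12 at 1114 and 1894 CPM against 18.1 and 109 CPM, in the same fibroblasts. Compared with the 490 cells labelled Con that had Mfap5 or Pcolce2, Mfap4 was higher in the meningeal fibroblasts labelled Con by a log2 ratio of 0.98 (0.92 to 1.04) and Slc6a13 by 1.57 (1.397 to 1.74), while Col1a1 was at -0.19 (-0.24 to -0.13). In the library labelled SMA, against 21 such cells, Mfap4 was at -0.95 (-1.21 to -0.69), Slc6a13 at 0.77 (0.52 to 1.03) and Col1a1 at -0.68 (-0.84 to -0.53). Over the same cells the median of the barrier genes was 0.08 in the library labelled SMA (6 genes) and 1.17 in the library labelled Con (10 genes). The median of the arachnoid genes was -0.18 (7 genes) and 1.22 (7 genes), and that of the growth and imprinted genes -0.04 (13 genes) and 0.53 (22 genes).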

How the data were processed

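The deposited counts are UMI counts per gene and barcode that the authors made with Cell Ranger, version 4.0.0 per the file header and another version in the study's methods, on mm10. Seurat 3.2.2 is named in the submitters' processing notes. The study tested single cells with MAST, which was not done here because each group is 1 library. Cells with 200 to 4000 genes and at most 10% mitochondrial UMIs were kept. The upper limit was the only treatment of doublets. Barcodes of the library labelled SMA that were also listed in the library labelled Con were left out. Before this, the libraries held 26921 and 25419 barcodes with 85872075 and 97894084 UMIs, and 8163 barcodes were shared.

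UMIs were summed over the cells of each library and divided by all their UMIs (CPM). Intervals are exact 95% Poisson, Clopper-Pearson and conditional binomial intervals. Genes with at least 100 UMIs in all were compared, and a gene was counted as different from 2-fold on. Named were the 30 genes highest in the members over other kept cells among those in at least 20% of members of each library, and the 12 in each direction whose interval bound nearest 0 lay farthest from 0 with 1 direction under every other choice of cells or weights set at the start, leaving out mitochondrial, haemoglobin and sex-linked genes. Members of the lists were named where they led in level or ratio, and further list members were chosen after their values were seen. Results of some genes are not reported here. The members and lists were chosen with earlier results of these data known. Groups of cells came from 1000 variable genes, 15 principal components, 15 neighbours and Louvain clustering at resolution 1. The interval code was tested on simulated data. Gene positions are those of the GRCm38 annotation. Python 3.11.15, numpy 2.4.6, scipy 1.17.1, scikit-learn 1.9.0, python-igraph 0.11.9 and matplotlib 3.10.9 were used.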

Additional observations from a re-analysis of the deposited data

How the results depend on the processing

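With 1 library per group, no alternative measures the spread between animals, and depth limits the comparison to genes with many UMIs. No paired analysis was possible because each group is 1 library and no test was made. The number of genes at least 2-fold higher and lower was 109 and 239 of 3241 at a minimum of 50 UMIs, 18 and 46 of 597 at 300 UMIs, and 1830 and 1557 of 11691 with no minimum but 1 UMI in each library. With shared SMA barcodes kept, the median was -0.66 for fibrillar collagens and -1.30 for immediate early genes, and the latter was -1.26 with a higher upper limit on genes per cell. The elastic fibre median was -1.77 at 300 UMIs. The barrier median was 0.48 when 3 or more meningeal genes were asked for and 0.38 without cells carrying another class. The retinoic acid median turned to -0.16 with no minimum. The complement median turned from -0.41 to 0.17 with 3 or more meningeal genes, 0.48 with none of the 4 markers of other cells, 0.60 without carrying cells and 0.080 with no minimum. Without carrying cells Mal turned to -1.88, Mag to -0.072, Rgs5 to 0.93, Acta2 to 2.51 and Gfap to 0.19, and Mal was at -1.92 without its highest cell. The values of Mal, Rgs5 and Acta2 then rest on very few UMIs, for Rgs5 on 1 in each library. That removal takes out marker genes by construction. For the others the cause was not tested. Of the main results 94 values stayed within their limits and 12 moved, and of single genes and other lists 554 stayed, 68 moved and 11 turned. Leaving out carrying cells, each gene's highest cell, or cells of 30% ribosomal RNA and more was chosen after seeing the data.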
